A study of Mus musculus with 64 samples.

Results

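The genes described here were 10 receptors of the tumor necrosis factor (TNF) receptor superfamily, taken by symbol, with no threshold on their values, from the 55809 genes counted. They were Tnfrsf18 (GITR), Tnfrsf4 (OX40), Tnfrsf9 (4-1BB), Cd27, Tnfrsf25 (DR3), Tnfrsf8 (CD30), Tnfrsf14 (HVEM), Tnfrsf1a (TNFR1), Tnfrsf1b (TNFR2) and Fas. Their RNA was followed in sorted mouse CD4+ T cells in which the transcription factor Foxp3 had either been degraded or been switched on, in 64 bulk RNA-seq libraries of 28 groups. The comparisons asked which receptor transcripts depended on Foxp3 in regulatory T (Treg) cells of different origin and activation state.

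TNF receptors are transmembrane proteins that bind trimeric ligands of the TNF family on neighbouring cells. Most T cell members recruit TRAF adaptors and turn on NF-kappaB, and so act as costimulatory receptors, whereas the members with a cytoplasmic death domain can also start caspase signalling. GITR, OX40, 4-1BB and TNFR2 are known as highly displayed receptors of Treg cells, and antibodies to several of them are used to alter Treg cells in tumors.

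In the degron mice, the Foxp3-AID allele carried an auxin-inducible degron tag, and reporter and Cre sequences were expressed with Foxp3. The ROSA26-TIR1(F74G) allele, opened by that Cre, supplied the plant protein that sends tagged Foxp3 for destruction when 5-ph-IAA is given, and ROSA26-WT mice lacked it. All 20 degron libraries, controls included, came from Foxp3-AID mice given 5-ph-IAA for 7 days. They were nascent (CD73-) Treg cells of the thymus and active (CD62L low, CD44 high) Treg cells of spleen and lymph nodes from adult females carrying 1 tagged and 1 untagged Foxp3 copy, 3 libraries per genotype in each, and Treg cells of spleen and lymph nodes from hemizygous infants, 4 libraries per genotype. The adults therefore kept Treg cells with untagged Foxp3 beside the sorted ones.

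In the reversible series, the Foxp3-LSL allele held a stop cassette that prevented Foxp3 protein, so the sorted cells were "Treg wannabe" cells that used the Foxp3 locus without making the protein. Mice with Cd4-CreERT2 (plusFoxp3) opened the allele after 4-hydroxytamoxifen, and Foxp3-LSL mice labelled CD4-WT (minusFoxp3) could not. The study describes the mice of this experiment as heterozygous Foxp3-LSL/WT females. By its account such mice stay healthy, because they also keep Treg cells with functional Foxp3. Resting (CD62L high, CD44 low) and active cells of spleen and lymph nodes were taken untreated, called day 0, and 3, 7, 14 and 28 days after 4-hydroxytamoxifen, 2 libraries per group. Untreated Foxp3GFP mice gave 2 libraries each of resting and active GFP Treg cells, which had never lacked Foxp3.

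Each adult degron library held 27753211 to 34029692 counted read pairs, each infant library 33704114 to 55801009 and each of the other 44 held 35097257 to 57419138. Levels are given as CPM, the read pairs of a gene per 1000000 counted in its library. The degron libraries were counted with a filter on mapping quality and the others without it, so no test crossed these sets. Foxp3 RNA in plusFoxp3 cells from day 3 on was 448 to 615 CPM (resting) and 426 to 594 CPM (active), against 47.3 to 81.5 and 44.3 to 65.3 CPM in all minusFoxp3 and untreated plusFoxp3 libraries. In the degron mice the protein is degraded, so Foxp3 RNA is no direct check of the labels. It was 144 to 168 CPM in thymic TIR1 and 144 to 181 CPM in thymic WT libraries, and 76.7 to 93.4 CPM in active TIR1 and 99.95 to 127 CPM in active WT libraries, which did not overlap. All libraries held the Treg and T cell genes Foxp3, Il2ra, Ctla4, Ikzf2, Cd3e, Cd3g and Cd4.

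For the 12 adult degron libraries, the library name in each table contradicted the genotype of the sample it was attached to, and the library name was followed. With the recorded attachment every adult TIR1 against WT difference below changes sign. By library name, Il2ra, the interleukin-2 receptor chain high on Treg cells, was 279.7 to 304.5 CPM in active TIR1 and 409 to 504 CPM in active WT libraries, without overlap and without an edgeR call, and by recorded attachment these ranges are exchanged. For the infants the sample title and the genotype field disagreed, so the titles name these groups here (titled TIR1, titled WT) and set the direction of their comparison. Titled WT replicate 4 stood apart from the other 3, and infant results are given with and without it. The study calls the replicates of its main designs independent and biological, but the labels tie no library to an animal, so p-values measure the spread between these libraries, which may in part be technical. In bulk RNA fewer cells of a type and less RNA per cell cannot be told apart.

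Of the 10 receptor genes, 7 share chromosome 4. In GRCm39, Tnfrsf4 (4:156098300-156101069, plus strand) lay 9.55 kb, with 2 other genes between, before Tnfrsf18 (4:156110621-156113352, plus strand). Tnfrsf9 (4:150999019-151030559) and Tnfrsf25 (4:152200391-152204576) were on the plus strand, and Tnfrsf14 (4:155006390-155013020) on the minus strand. Tnfrsf1b (4:144940033-144973440) and Tnfrsf8 (4:144993707-145041734) were on the minus strand, 20.3 kb apart. Cd27 (6:125209585-125213973, minus strand) and Tnfrsf1a (6:125326325-125339447, plus strand) lay 112 kb apart, and Fas was on chromosome 19 (34268066-34305172, plus strand). Counting did not use strand, and 27.2% of the exon bases of Tnfrsf18 are shared with the antisense gene Gm16008, whose reads cannot be told from those of Tnfrsf18. Likewise 5.54% of the exon bases of Cd27 are shared with Mir8113.

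The 250 bases before the canonical start were searched on both strands for 3 motifs, because NF-kappaB and AP-1 act downstream of these receptors and Foxp3 is a forkhead factor. The NF-kappaB consensus GGGRNWYYCC (R is A or G, W is A or T, Y is C or T, N is any base) was present in 4.23% of 21770 protein-coding promoters. It was in 2 of the 10 (Tnfrsf9 and Tnfrsf8), and in Tnfrsf8 it reads on the strand opposite to the gene alone. The AP-1 site TGAGTCA was in 4.02% and in 3 of the 10 (Tnfrsf9, Tnfrsf8 and Fas), and the forkhead site TGTTTAC in 2.72% and in 0 of the 10. In Tnfrsf9 the NF-kappaB consensus was matched 3 times in overlapping letters, on both strands, and its AP-1 match did not overlap them. The canonical start of Tnfrsf9 (4:151012456) lies inside the counted gene, which begins at 4:150999019, and so do these matches. The matches are shown 5′ to 3′ on the strand of the gene, with the matched letters in capitals, because Tnfrsf9 had the largest fold change of the 10 receptors and its matches lay nearest the start.
Tnfrsf9, NF-kappaB consensus, chr4:151012404-151012432, plus strand, 43 bases before the start: agagcagctGGGGATTTCCCaggaggccc
Tnfrsf9, AP-1, chr4:151012430-151012455, plus strand, 15 bases before: ccctgctcagtTGAGTCAcaggtcct
Tnfrsf8, NF-kappaB consensus, chr4:145041883-145041912, minus strand, 185 bases before: tcaaaacgcaGGGGAGCCCCctgcgtgcgt
Tnfrsf8, AP-1, chr4:145041849-145041877, minus strand, 149 bases before: gtggctagcccTGAGTCAtctctgcacgt
Fas, AP-1, chr19:34267837-34267865, plus strand, 211 bases before: ctgtgcagtggTGAGTCAgtgggtttccc
A match describes the letters alone. Binding was not measured in these libraries.

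Per kilobase of exon, OX40 and GITR transcripts led in mature active Treg cells. In active GFP Treg cells Tnfrsf4 stood at 669 ± 23.9 CPM per kb (SD, n = 2), above Tnfrsf18 at 421 ± 25.5 and Cd27 at 310 ± 14.3. Tnfrsf1b (264 ± 42.3) and Tnfrsf9 (256 ± 51.0) followed and did not differ beyond their spread, and neither did Tnfrsf25 (43.2 ± 7.77) and Fas (38.5 ± 8.46). Tnfrsf1a was at 20.8 CPM per kb, with Tnfrsf14 at 8.72 ± 2.11 and Tnfrsf8 at 7.16 ± 0.180 last and within each other's spread. In active minusFoxp3 cells of day 0 the order was different: Tnfrsf4 (253) still led, but Fas (8.03) and Tnfrsf9 (7.92) stood beside Tnfrsf14 (8.53) near the bottom. In resting minusFoxp3 cells of day 0, Cd27 (223), Tnfrsf4 (205) and Tnfrsf18 (183) led and Tnfrsf8 (0.207) was last. Thymic WT cells had the same leading pair as active GFP Treg cells, with 1212 ± 72.2 CPM per kb of Tnfrsf4 and 797 ± 54.5 of Tnfrsf18 (n = 3).

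**Figure D1:**
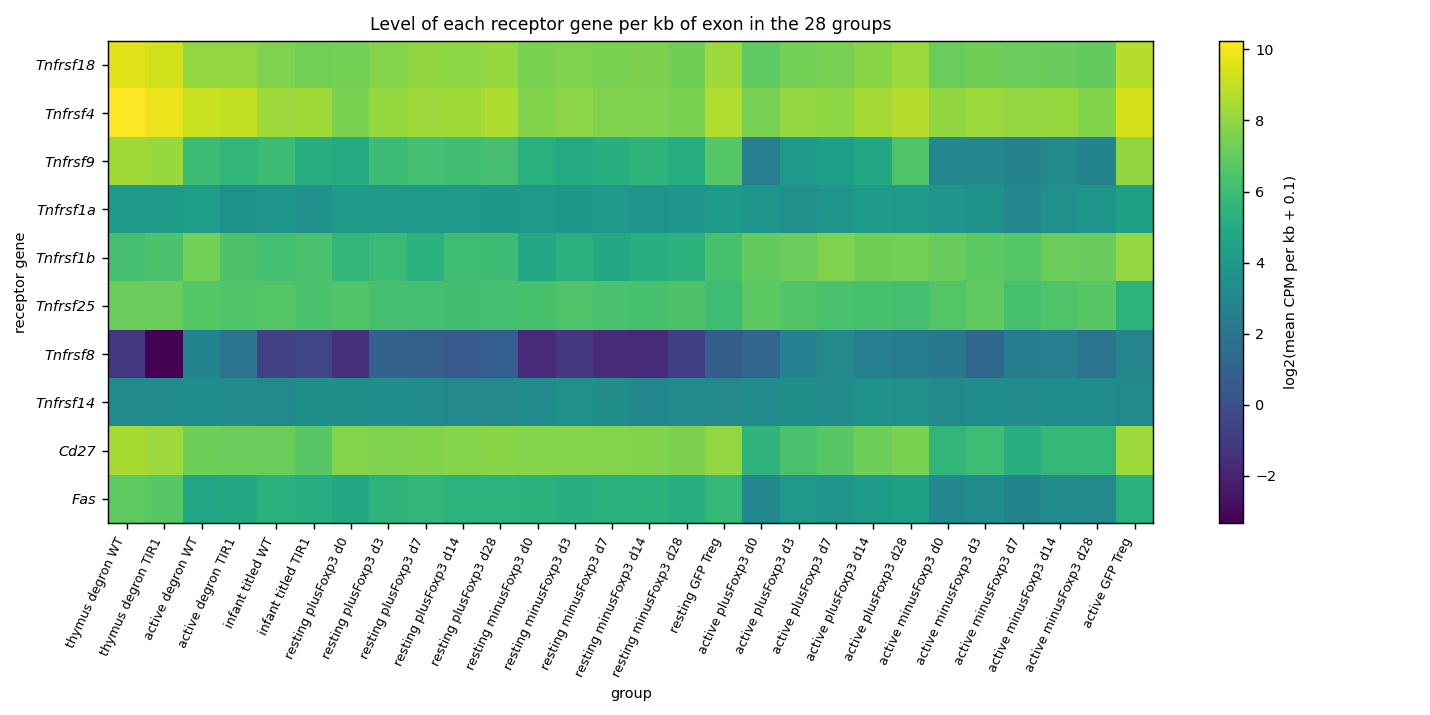
Heat map of log2(mean CPM per kb of exon + 0.1) for the 10 receptors (rows) in the 28 groups (columns), with 2 to 4 libraries in each group. Tnfrsf4 and Tnfrsf18 were among the 3 highest in every column, Tnfrsf8 was lowest in every column (0.207 CPM per kb in resting minusFoxp3 cells of day 0, 7.16 in active GFP Treg cells), and the degron columns were counted under another setting.

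The 10 receptors differed in how far they ranged. Over the 28 groups, the highest group mean of Tnfrsf9 was 58.0 times its lowest, that of Fas 17.4 times, of Cd27 9.50 times and of Tnfrsf1b 9.23 times. Tnfrsf4 and Tnfrsf18 spanned 6.82 and 6.75 times, Tnfrsf25 3.42 times, Tnfrsf1a 2.69 times and Tnfrsf14 1.57 times. These spans cross the counting settings and are given as description. Calls below are edgeR quasi-likelihood tests with a Benjamini-Hochberg adjusted p under 0.05 over all genes tested, and of 24 comparisons Tnfrsf9 was called in 9, Cd27 and Fas in 7, Tnfrsf4 and Tnfrsf1b in 5, Tnfrsf18 in 3, Tnfrsf25 and Tnfrsf8 in 2, Tnfrsf1a in 1 and Tnfrsf14 in 0.

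In active cells, plusFoxp3 cells held more RNA of several receptors than minusFoxp3 cells, and the number of called receptors grew with time. At day 0, before 4-hydroxytamoxifen, 0 of the 10 were called, and 0.00481% of all genes tested were. At day 3 it was 0 of 10 (0.274% of all genes). At day 7, 2 were called, both higher in plusFoxp3 cells, where 0.568% of all genes were called (0.318% higher, 0.25% lower), and at day 14, 3 were called, all higher, against 0.732% of genes (0.303% higher, 0.428% lower). At day 28, 5 were called, all higher, against 1.85% of genes (0.9% higher, 0.953% lower), and the plus and minus libraries did not overlap for 8 of the 10, nor for 42.3% of all genes tested. The median log2 fold change of the 10 at day 28 was 0.81, and that of all genes tested was 0.03. B cell marker RNA moved alongside: the sum of Ms4a1, Cd79a, Cd79b and Pax5, most of it Cd79b, was 23.9 to 37.6 CPM in plusFoxp3 and 18.3 to 19.0 CPM in minusFoxp3 libraries of day 28. At day 7 it was 19.4 to 22.8 and 9.63 to 13.6 CPM. The summed myeloid markers were lower in plusFoxp3 libraries of day 28, at 9.14 and 12.9 CPM against 15.1 and 20.9 CPM. The part of either sum in the receptor differences was not tested. Of the B cell genes, the defining markers were at most 1.84 CPM and 0 in 14 libraries (Ms4a1) and at most 1.16 CPM and 0 in 18 libraries (Pax5).

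GITR and OX40, whose genes lie close together, were called at day 28 alone in the active time course by the main edgeR test. Tnfrsf18, a costimulatory receptor high on Treg cells, stood at 434 and 480 CPM in plusFoxp3 cells of day 28 and at 193 and 188 CPM in minusFoxp3 cells (log2 fold change 1.27 ± 0.22 SE, adjusted p = 0.00403, 2.42-fold). At day 14 it was 349 and 344 CPM against 219.9 and 201 CPM, without passing the main test (0.73, adjusted p = 0.171). Other settings called Tnfrsf18 at day 14: DESeq2 (0.0493), no count filter (0.0163) and a fit on the compared libraries alone (0.0496). Tnfrsf4, which supports survival of activated T cells, was at 484 and 661 CPM at day 28 against 265 and 283 CPM (1.07 ± 0.25, adjusted p = 0.0324, 2.10-fold). Both genes were higher in each plusFoxp3 library of day 28 than in either minusFoxp3 library. At day 7 Tnfrsf4 showed no such separation, with 331 and 343 CPM in plusFoxp3 and 437 and 293 CPM in minusFoxp3 cells. The day 28 call of Tnfrsf18 was lost without minusFoxp3 replicate 2 (adjusted p = 0.0572), and that of Tnfrsf4 without minusFoxp3 replicate 1 (0.241), minusFoxp3 replicate 2 (0.184) or plusFoxp3 replicate 2 (0.286).

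Tnfrsf9 (4-1BB), a receptor induced by T cell receptor signals, had the largest change of the 10 in active cells. Its level was 16.3 and 21.2 CPM in minusFoxp3 cells of day 28 and 186 and 316 CPM in plusFoxp3 cells, 13.5-fold higher (log2 3.76 ± 0.41, adjusted p = 7.51e-05). The plusFoxp3 libraries held 19.8 and 9.998 CPM at day 0, 48.4 and 59.1 at day 7 and 57.7 and 100.2 at day 14, while all active minusFoxp3 libraries lay at or under 28.0 CPM. At day 14 the difference was called (1.76, adjusted p = 0.0423), but not without any 1 of the 4 libraries (adjusted p from 0.0515 to 0.4). At day 7 it was 1.64 (adjusted p = 0.0698), and 1.86 without minusFoxp3 replicate 2. DESeq2 (adjusted p = 0.00188) and the fit without the count filter (6.27e-12) called Tnfrsf9 at day 7. The day 28 call of Tnfrsf9 held without each library in turn.

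Cd27, which costimulates T cells through CD70, was with Fas the receptor called earliest by the main edgeR test, and this order depended on the setting. At day 3 DESeq2 called Fas (adjusted p = 0.0165) and Tnfrsf8 (0.000566). Without the count filter Tnfrsf8 (2.08e-05) and Tnfrsf9 (9.85e-05) were called at day 3. A fit on the compared libraries alone called neither Cd27 (0.143) nor Fas (0.486) at day 7. At day 7 Cd27 stood at 237 and 255 CPM in plusFoxp3 and 79.6 and 93.0 CPM in minusFoxp3 active cells (1.55 ± 0.22, adjusted p = 0.00239). At day 14 it was 326 and 392 against 129 and 115 CPM (1.56, adjusted p = 0.0016), and at day 28 328 and 518 against 102 and 139 CPM (1.82 ± 0.22, adjusted p = 0.0002, 3.53-fold). The groups did not overlap at any of these days. This also held for 42.3% of all genes at day 28, and was not counted over all genes at days 7 and 14. The day 7 call was lost without minusFoxp3 replicate 1 (adjusted p = 0.0577).

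Fas, the death receptor that recruits FADD and caspase-8, was called at the same days as Cd27 by the main edgeR test. Active plusFoxp3 and minusFoxp3 libraries held 27.7 and 26.5 against 12.7 and 15.3 CPM at day 7 (0.99 ± 0.21, adjusted p = 0.0413), 36.5 and 36.9 against 17.7 and 20 CPM at day 14 (0.96, adjusted p = 0.0423), and 42.3 and 44.4 against 13.5 and 21.6 CPM at day 28 (1.32 ± 0.21, adjusted p = 0.00212). Each pair of groups was apart, and the difference was already of similar size at day 3 (34.3 and 30.1 against 20.7 and 17.7 CPM) without passing the test (0.81, adjusted p = 0.16). DESeq2 called Fas at day 3 (0.81, adjusted p = 0.0165). Of all genes 42.3% were apart at day 28, and the share was not counted at days 3, 7 and 14. Leaving out 1 library ended the Fas call at day 7 without minusFoxp3 replicate 1 (adjusted p = 0.347), plusFoxp3 replicate 1 (0.331) or plusFoxp3 replicate 2 (0.152), at day 14 without any of the 4 (0.147 to 0.361), and at day 28 without minusFoxp3 replicate 1 (0.0738).

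The remaining receptors did not pass the main edgeR test in the active time course. Tnfrsf25, a death domain receptor for TL1A, was 199 and 138 CPM in plusFoxp3 and 247 and 227 CPM in minusFoxp3 cells of day 28 (-0.48, adjusted p = 0.356), and so lay lower without overlap. Tnfrsf1a, the widely expressed death domain receptor for TNF, was 45.8 and 39.7 against 36.4 and 31.5 CPM (0.34, adjusted p = 0.586). Tnfrsf1b, the TNF receptor enriched on Treg cells, was 461 and 768 against 543 and 488 CPM (0.26, adjusted p = 0.873), with overlap. At day 7 Tnfrsf1a was called by DESeq2 (0.86, adjusted p = 0.00303) and without the count filter (0.87, 0.0241). Tnfrsf1b was called at day 7 without the count filter (1.0, adjusted p = 1.07e-05). Without minusFoxp3 replicate 2 the day 7 log2 fold changes were 1.49 for Tnfrsf1b and 1.07 for Tnfrsf1a. Tnfrsf8, a receptor of activated lymphocytes, was 18.1 and 26.5 against 8.78 and 6.88 CPM at day 3 (1.58 ± 0.34, adjusted p = 0.0652) and overlapped at day 28. DESeq2 (adjusted p = 0.000566) and the fit without the count filter (2.08e-05) called Tnfrsf8 at day 3. Tnfrsf14, which binds LIGHT and BTLA, lay between 10.4 and 19.2 CPM in all active libraries of the reversible series.

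**Figure D2:**
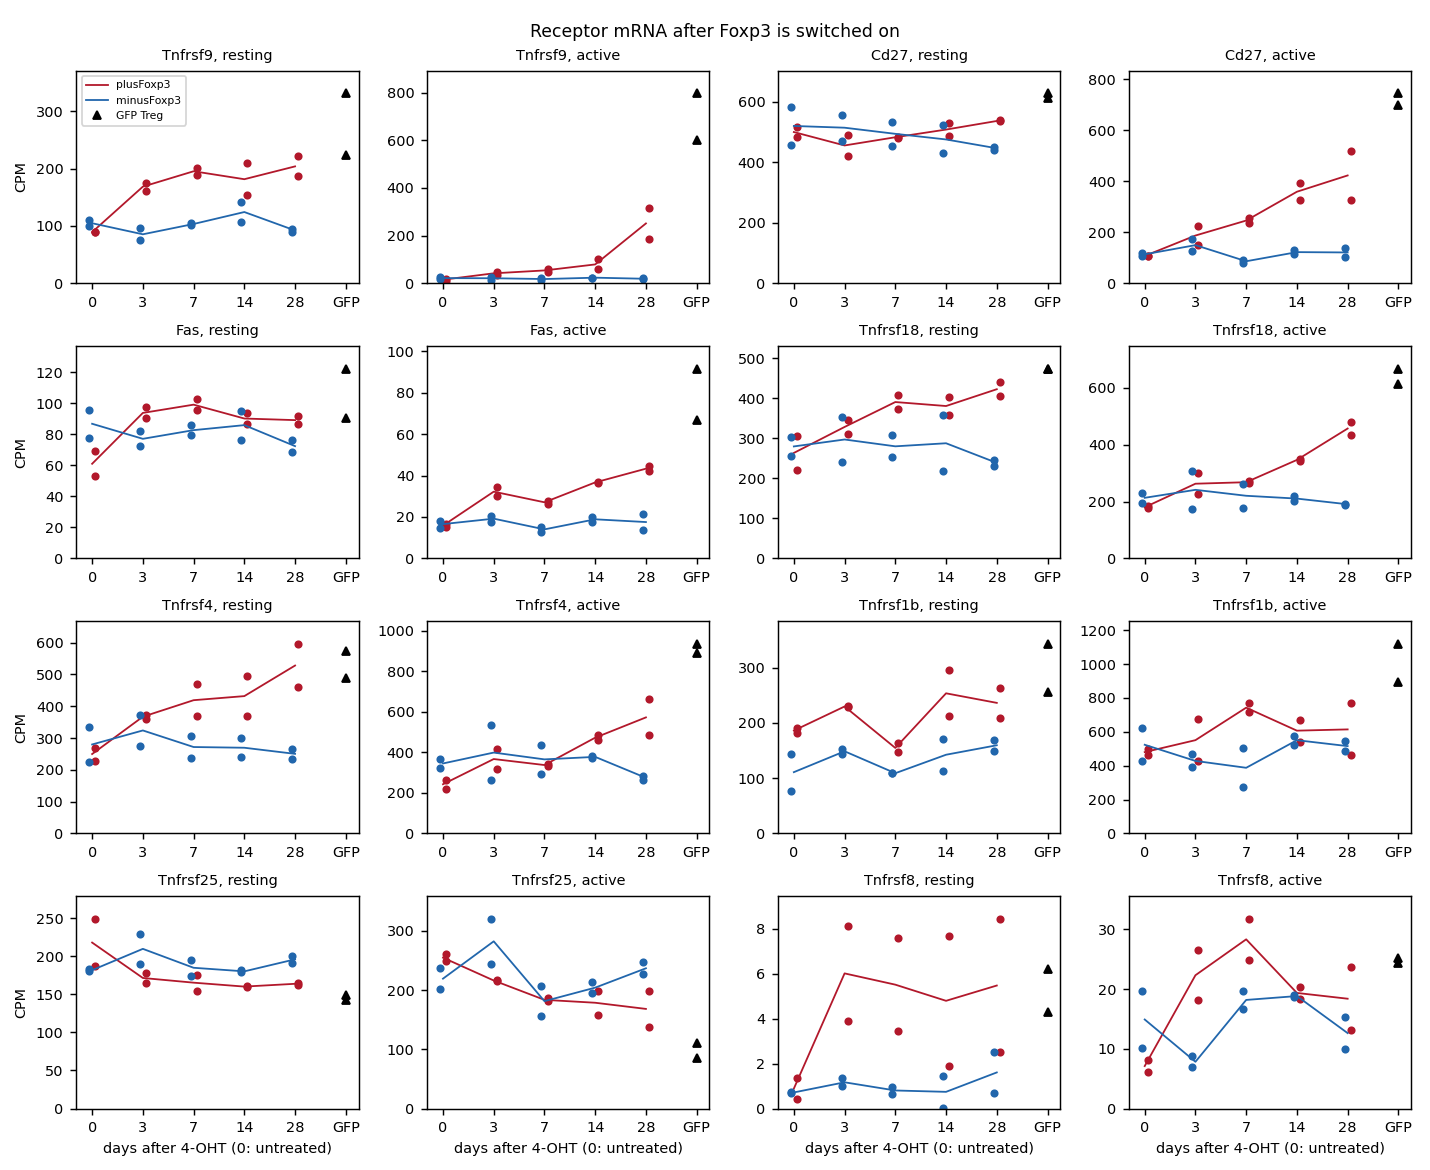
Level in CPM (vertical axes, linear) of 8 receptors in resting and active cells against days after 4-hydroxytamoxifen (evenly spaced, not to scale), with plusFoxp3 in red, minusFoxp3 in blue, GFP Treg cells as black triangles, dots for libraries and lines through group means. Active Tnfrsf9 climbed to 186 and 316 CPM at day 28 and stayed under the GFP Treg libraries (796 and 600 CPM), whereas active Tnfrsf1b overlapped at day 28.

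In resting cells fewer receptors passed, and those that did were 4-1BB and OX40. At days 0, 3, 7 and 14, 0 of the 10 were called, where 0.00487%, 0.0487%, 0.0585% and 0.268% of all genes tested were. At day 28, 2 were called, both higher in plusFoxp3 cells, against 0.945% of genes (0.541% higher, 0.404% lower), and the libraries of 7 of the 10 did not overlap, as for 42.2% of all genes. The median log2 fold change of the 10 was 0.45 and that of all genes 0.01. The B cell marker sum was 30.04 to 38.7 CPM in plusFoxp3 and 19.9 to 28.2 CPM in minusFoxp3 libraries of day 28, and its part in the result was not tested.

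Resting Tnfrsf9 stood at 221 and 186 CPM in plusFoxp3 and at 89.5 and 94.5 CPM in minusFoxp3 cells of day 28 (1.16 ± 0.2, adjusted p = 0.0107). It was already apart at day 3, with 175 and 162 CPM against 96.1 and 74.6 CPM (1.05 ± 0.2, adjusted p = 0.0962). Tnfrsf4 stood at 597 and 459 CPM against 266 and 234 CPM at day 28 (1.09 ± 0.22, adjusted p = 0.0253). Both calls were lost without minusFoxp3 replicate 1 (adjusted p = 0.191 for each), without minusFoxp3 replicate 2 (0.0907 for Tnfrsf9, 0.274 for Tnfrsf4) or without plusFoxp3 replicate 1 (0.0992 and 0.259). Tnfrsf18 was at 439.5 and 405 CPM against 246 and 231 CPM, apart but short of the threshold (0.84 ± 0.22, adjusted p = 0.0971), and was called with a replicate block (0.0139), by DESeq2 (0.0176) and without the count filter (0.00452). Likewise Tnfrsf9 was called at day 3 by DESeq2 (0.00044), without the count filter (0.000254) and with a replicate block (0.0242). A fit on the compared libraries alone also called it at day 3 (0.0308). At day 7 Tnfrsf9 was called by DESeq2 (0.00566) and without the count filter (0.00601).

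The other resting values were closer. Tnfrsf8 was low and scattered: its plusFoxp3 libraries held 8.12 and 3.92 CPM at day 3, 7.60 and 3.44 at day 7, 7.70 and 1.90 at day 14 and 8.46 and 2.50 at day 28, and the minusFoxp3 libraries of those days 0.0216 to 2.52 CPM. Of these 4 days the groups overlapped at day 28 alone, and no day passed in the main fit (adjusted p from 0.423 to 0.692). Without the count filter Tnfrsf8 was called at each of these days (adjusted p from 1.94e-05 to 0.0179). Resting Cd27 (535 and 538 against 451 and 442 CPM at day 28, adjusted p = 0.601) and Fas (86.7 and 91.4 against 76.1 and 68.5 CPM, adjusted p = 0.664) were apart without passing. Fas at day 0 was 53.0 and 68.9 CPM in plusFoxp3 against 95.8 and 77.6 CPM in minusFoxp3 cells (-0.52, adjusted p = 0.428), a difference before any treatment that passed without plusFoxp3 replicate 2 (-0.73, adjusted p = 0.0258).

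The day 28 difference itself was compared between active and resting cells. Of the 10, 2 passed, both larger in active cells, where 0.0818% of all genes passed (0.0481% larger, 0.0337% smaller). Tnfrsf9 differed by 2.59 ± 0.45 on the log2 scale (adjusted p = 0.0141) and Cd27 by 1.53 ± 0.26 (adjusted p = 0.0141). In a fit on the compared libraries alone neither passed (0.214 and 0.364). Fas differed by 1.00 (adjusted p = 0.239), and the other 7 did not pass. Both calls were lost without active minusFoxp3 replicate 1 (0.158 and 0.149), active plusFoxp3 replicate 2 (0.109 for each) or any 1 of the 4 resting libraries (0.0522 to 0.0883). The minusFoxp3 levels of day 28 were unlike, at 451 and 442 CPM of Cd27 in resting and 102 and 139 CPM in active cells.

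Against cells that had never had Foxp3 protein, active GFP Treg cells differed in 8 of the 10 receptors. In active GFP Treg against active minusFoxp3 cells of day 0, 10% of all genes tested were called (5.21% higher, 4.79% lower). Of the receptors 7 were higher and 1 lower, 9 of the 10 did not overlap, where 48.0% of all genes did not, and the median was 1.20 on the log2 scale against 0 for all genes. This comparison shares the minusFoxp3 day 0 libraries with the day 0 comparison above. The B cell marker sum was 39.5 to 47.3 CPM in the GFP Treg and 13.4 to 26.2 CPM in the minusFoxp3 libraries, and its part in the result was not tested.

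Tnfrsf9 was 796 and 600 CPM in active GFP Treg cells and 16.2 and 27.0 CPM in active minusFoxp3 cells of day 0, 32.9-fold higher (5.04 ± 0.44, adjusted p = 9.88e-07). Cd27 was 745 and 697 CPM against 119 and 108 CPM (2.69 ± 0.23, adjusted p = 7.91e-07), and Fas 91.7 and 67.1 CPM against 18.2 and 14.9 CPM (2.29 ± 0.22, adjusted p = 2.13e-06). In these 3 genes the lowest GFP Treg library was several times the highest minusFoxp3 library. Tnfrsf18 was 614 and 668 CPM against 230.4 and 196 CPM (1.61 ± 0.22, adjusted p = 0.000105), and Tnfrsf4 889.7 and 936 CPM against 369 and 321 CPM (1.43 ± 0.25, adjusted p = 0.00107). Tnfrsf25 went the other way, with 85.9 and 111 CPM in GFP Treg and 237 and 202 CPM in minusFoxp3 cells (-1.13 ± 0.2, adjusted p = 0.00129). Both TNF receptors passed narrowly: Tnfrsf1b (1121 and 892 against 427 and 620 CPM, 0.97 ± 0.3, adjusted p = 0.0495) and Tnfrsf1a (54.1 and 53.8 against 31.1 and 37.1 CPM, 0.69 ± 0.19, adjusted p = 0.0304). Leaving out any 1 of the 4 libraries ended the call of Tnfrsf1b (0.0539 to 0.431) and of Tnfrsf1a (0.0606 to 0.324).

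By the main edgeR test, active plusFoxp3 cells of day 28 were below active GFP Treg cells in Fas alone, but other settings called further receptors. Here 2.01% of all genes were called (0.38% higher, 1.63% lower in GFP Treg cells), and 1 of the 10 receptors was, in the higher direction. This was Fas, at 91.7 and 67.1 CPM against 42.3 and 44.4 CPM (0.88 ± 0.21, adjusted p = 0.036). The 2 groups did not overlap for any of the 10, nor for 43.0% of all genes, with a median of 0.58 against -0.01 for all genes. Tnfrsf9 was 1.48 higher (adjusted p = 0.0555), Cd27 0.77 higher (0.093) and Tnfrsf25 0.77 lower (-0.77, adjusted p = 0.062). DESeq2 called Tnfrsf9 (adjusted p = 0.00396), Cd27 (0.0231) and Tnfrsf25 (0.0151). The fit without the count filter also called them, and with them Tnfrsf4 (0.67, adjusted p = 0.0164) and Tnfrsf1b (0.71, 0.00595) as higher in GFP Treg cells. In a fit on the compared libraries alone Fas was not called (0.144). The Fas call was lost without GFP Treg replicate 1 (0.508), plusFoxp3 replicate 1 (0.289) or plusFoxp3 replicate 2 (0.12), and without the last of these Tnfrsf9 (0.0484), Tnfrsf25 (0.0158) and Cd27 (0.0205) passed. The plusFoxp3 day 28 libraries are those of the day 28 comparison above.

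In resting cells, 3 of the 10 receptors were higher in GFP Treg than in minusFoxp3 cells of day 0 and 0 were lower, where 2.91% of all genes were called (1.7% higher, 1.21% lower). Tnfrsf1b, which did not pass in the resting time course, was 344 and 256 CPM against 77.7 and 144 CPM (1.44 ± 0.27, adjusted p = 0.00543). Tnfrsf9 was 331 and 223 CPM against 109 and 99.85 CPM (1.42 ± 0.2, adjusted p = 0.000717), and Tnfrsf4 575 and 489 CPM against 334 and 226 CPM (0.95 ± 0.22, adjusted p = 0.0268). None of these 3 overlapped. The share of all genes without overlap was not counted here, and was 42.2% to 49.4% where counted in the reversible series and GFP Treg cells. In a fit on the compared libraries alone Tnfrsf1b and Tnfrsf4 did not pass (adjusted p = 0.133 for each). Tnfrsf8 was called in that fit (0.0311). Tnfrsf18, at 474 and 473 CPM against 302 and 257 CPM, was apart without passing (0.78, adjusted p = 0.0706), and was called with a replicate block (0.00951), by DESeq2 (0.0158) and without the count filter (0.00734). The call of Tnfrsf1b was lost without GFP Treg replicate 1 (0.0748) or minusFoxp3 replicate 1 (0.0751), and that of Tnfrsf4 without GFP Treg replicate 1 (0.23), GFP Treg replicate 2 (0.0552) or minusFoxp3 replicate 2 (0.153). The B cell marker sum was 33.8 to 46.8 CPM in GFP Treg and 20.9 to 23.1 CPM in minusFoxp3 libraries.

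Resting GFP Treg cells and resting plusFoxp3 cells of day 28 were compared as well, and 0 of the 10 receptors were called (0.0341% of all genes, adjusted p = 1 for each receptor). In minusFoxp3 cells of day 28 against day 0, 0 of the 10 were called in resting cells (0% of all genes by edgeR, 752 genes at an unadjusted p under 0.05) and 0 in active cells (0% by edgeR, 549 genes at an unadjusted p under 0.05). DESeq2 also called 0 of the 10 in both.

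Where Foxp3 protein was absent, active and resting cells differed in 5 of the 10 receptors. In active against resting minusFoxp3 cells of day 0, 13.4% of all genes were called (7.87% higher, 5.57% lower), and of the receptors 2 were higher and 3 lower in active cells. Tnfrsf8 was 10.2 and 19.6 CPM in active and 0.680 and 0.755 CPM in resting cells (4.37 ± 0.85, adjusted p = 0.000603), and Tnfrsf1b 427 and 620 against 77.7 and 144 CPM (2.23 ± 0.31, adjusted p = 6.68e-06). Lower in active cells were Fas (18.2 and 14.9 against 95.8 and 77.6 CPM, -2.39 ± 0.19, adjusted p = 3.27e-09), Tnfrsf9 (16.2 and 27.0 against 109 and 99.85 CPM, -2.28 ± 0.33, adjusted p = 1.6e-05) and Cd27 (119 and 108 against 583 and 458 CPM, -2.20 ± 0.19, adjusted p = 9.51e-09). None of these 5 overlapped, as for 49.4% of all genes, and their calls held without each library in turn. The summed CD8 and NK markers were 10.9 to 21.9 CPM in active and 26.6 to 34.4 CPM in resting minusFoxp3 libraries, and their part in the result was not tested. Over all libraries a single gene of this list had a median of 19.7 CPM, and the others at most 0.671 CPM. Tnfrsf18 (-0.39, adjusted p = 0.294) and Tnfrsf4 (0.30, adjusted p = 0.504) did not pass.

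Active against resting GFP Treg cells gave another picture. Here 3.12% of all genes were called (1.81% higher, 1.31% lower), and 2 receptors were higher in active cells and 0 lower. Tnfrsf1b was 1121 and 892 CPM against 344 and 256 CPM (1.73 ± 0.3, adjusted p = 0.00126). Tnfrsf9, lower in active than resting minusFoxp3 cells, was higher here, at 796 and 600 CPM against 331 and 223 CPM (1.31 ± 0.32, adjusted p = 0.0201). Cd27 (0.20, adjusted p = 0.692) and Fas (-0.44, adjusted p = 0.234) did not pass. Tnfrsf4 (0.76, adjusted p = 0.0931) did not pass either, but was called by DESeq2 (0.023), with a replicate block (0.0155), without the count filter (0.00415) and in a fit on the compared libraries alone (0.0423). Tnfrsf25 was called lower by DESeq2 (-0.56, adjusted p = 0.0353) and with the block (-0.58, 0.0442). The CD8 and NK marker sum was 15.4 to 20.1 CPM in active and 25.7 to 26.95 CPM in resting GFP Treg libraries, and its part in the result was not tested. A single gene led this list, as above. Tnfrsf9 was lost without active GFP Treg replicate 1 (0.274) and both genes without resting GFP Treg replicate 2 (0.0614 for Tnfrsf1b, 0.288 for Tnfrsf9). Both state comparisons use the minusFoxp3 day 0 or GFP Treg libraries of the comparisons above, and the difference between them was not tested.

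Thymic and active WT Treg cells, both with Foxp3-AID and 5-ph-IAA but without TIR1, differed in 8 of the 10 receptors. Among all genes 23.0% were called (9.22% higher, 13.8% lower in thymus), and of the receptors 6 were higher and 2 lower in thymus. The WT libraries are those of the degron comparisons below. The median of the 10 was 0.73 on the log2 scale and that of all genes -0.03. Tissue and sort gate cannot be told apart here. The B cell marker sum was 11.02 to 20.07 CPM in the thymic and 31.3 to 57.8 CPM in the active WT libraries, and the summed CD8 and NK markers were 54.1 to 62.8 CPM in thymic and 16.8 to 21.9 CPM in active WT libraries. The part of these sums in the result was not tested, and a single gene led the CD8 and NK sum, as above.

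Tnfrsf18 was 1138, 1303 and 1200 CPM in thymic WT cells and 435, 423 and 343 CPM in active WT cells (1.51 ± 0.11, adjusted p = 1.19e-06), and Tnfrsf4 1545, 1680 and 1737 CPM against 921, 686 and 686 CPM (1.02 ± 0.13, adjusted p = 0.000147). Tnfrsf9 was 887, 878 and 827 against 238, 152 and 131 CPM (2.22 ± 0.2, adjusted p = 6.25e-06). Cd27 (843, 784 and 831 against 441, 311 and 315 CPM, 1.11 ± 0.14, adjusted p = 8.43e-05) and Fas (231, 243 and 256 against 75.8, 40.8 and 44.7 CPM, 2.08 ± 0.21, adjusted p = 2.18e-05) were likewise higher in every thymic library. Tnfrsf25 was higher by 0.43 (adjusted p = 0.0257). Lower in thymus were Tnfrsf1b, at 268, 297 and 310 CPM against 449.8, 638 and 799 CPM (-1.20 ± 0.19, adjusted p = 0.000723), and Tnfrsf8, at 0, 0.669 and 3.13 CPM against 8.40, 25.5 and 36.6 CPM (-4.30 ± 1.18, adjusted p = 0.0242). Tnfrsf25 was lost without active WT replicate 1 (0.065) or 3 (0.0687) or thymic WT replicate 1 (0.0772) or 3 (0.0789), and Tnfrsf8 without active WT replicate 2 (0.0541) or 3 (0.0688) or thymic WT replicate 2 (0.0796). With the recorded attachment of the adult libraries, Tnfrsf1b was -0.12 (adjusted p = 0.73) and no longer called.

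In thymic Treg cells, no receptor passed the edgeR test after 7 days of Foxp3 degradation. In TIR1 against WT libraries 0 of the 10 were called, and 0% of 14245 genes were by edgeR (1050 at an unadjusted p under 0.05, 6 of the 10 receptors among them). Tnfrsf18 was 906, 994 and 1009 CPM in TIR1 and 1138, 1303 and 1200 CPM in WT libraries (-0.33 ± 0.07, adjusted p = 0.461). Tnfrsf4 was 1172, 1297 and 1331 CPM against 1545, 1680 and 1737 CPM (-0.39 ± 0.07, adjusted p = 0.406). Cd27 was 698, 704 and 706 CPM against 843, 784 and 831 CPM (-0.23 ± 0.05, adjusted p = 0.461). For these 3, and for Tnfrsf9 and Fas, 5 of the 10, every TIR1 library was below every WT library, and of all genes 13.0% did not overlap in either direction. DESeq2 called 3 receptors and 1.1% of all genes here, Tnfrsf18 (adjusted p = 0.00163), Tnfrsf4 (1.01e-05) and Cd27 (0.00272). Tnfrsf8 was 0 in all 3 TIR1 libraries, where 3 counts would be 0.0882 to 0.0976 CPM per library, and no fold is given. The median of the 10 was -0.17 and that of all genes 0.

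In active Treg cells the degron comparison called 0 of the 10 receptors and 0% of 14554 genes by edgeR (672 at an unadjusted p under 0.05), and DESeq2 also called 0 of the 10. The groups did not overlap for 2 of the 10 and for 10.1% of all genes, neither receptor among the 5 of the thymus. Tnfrsf1b was 419, 264 and 321 CPM in TIR1 and 449.8, 638 and 799 CPM in WT libraries (-0.94 ± 0.24, adjusted p = 1), and Tnfrsf1a 38.0, 37.2 and 23.2 CPM against 46.3, 47.1 and 54.8 CPM (-0.63 ± 0.23, adjusted p = 1). Tnfrsf18 was 379, 398 and 416 CPM against 435, 423 and 343 CPM and overlapped (-0.04, adjusted p = 1), as did Tnfrsf4 (-0.18). The test of the difference between thymic and active effects called 0 of the 10 and 0% of genes by edgeR (984 at an unadjusted p under 0.05). Tnfrsf1b, at 1.08 ± 0.27 (adjusted p = 0.592), was called there by DESeq2 (0.0241).

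In infants edgeR called 0 of the 10 receptors with all 8 libraries, where it called 0.0185% of 16209 genes (3 genes). DESeq2 called 6.83% of genes and 2 receptors, Tnfrsf9 (-0.80, adjusted p = 0.00924) and Cd27 (-0.41, 0.0103). Tnfrsf9 was 111, 99.0, 89.6 and 84.5 CPM in the libraries titled TIR1 and 198, 199, 198 and 84.6 CPM in those titled WT (-0.81 ± 0.25, adjusted p = 0.156). The first 3 WT libraries were nearly equal and the fourth was among the TIR1 values. Cd27 was 256, 255, 260.1 and 222 CPM against 365, 353, 359.6 and 265 CPM, and was the only receptor of the 10 without overlap, which 8.73% of all genes also lacked (-0.42 ± 0.1, adjusted p = 0.1). Tnfrsf18 was 267, 230.2, 243 and 239 CPM against 330.3, 341, 330.4 and 201 CPM (-0.28 ± 0.15, adjusted p = 0.361). Without titled WT replicate 4, 11% of all genes (6.55% higher, 4.44% lower) and 4 receptors were called: Tnfrsf9 (-1.03, adjusted p = 3.97e-05), Cd27 (-0.51, 0.000701) and Tnfrsf18 (-0.43, 0.00204) were lower in libraries titled TIR1, and Tnfrsf14 higher (0.45, 0.0402). Tnfrsf4 did not differ beyond its spread in infants, with 487, 394, 373 and 467 CPM against 438, 453, 417 and 350.1 CPM (0.07, adjusted p = 0.777).

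**Figure D3:**
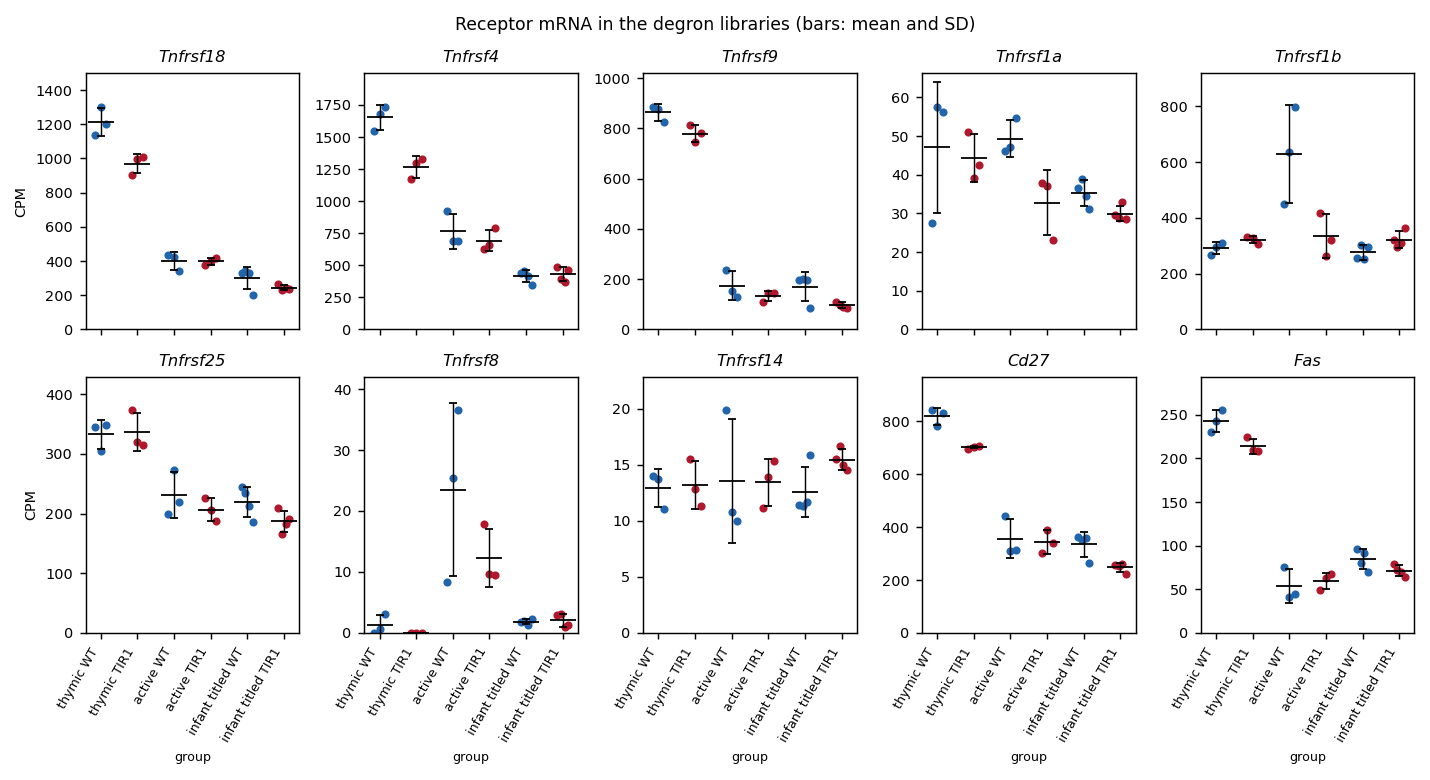
Level in CPM (vertical axes, linear) of the receptors in each degron library, with WT in blue and TIR1 in red, and the mean with SD bars for each group (n = 3 in adults, n = 4 in infants). Thymic Tnfrsf18 lay at 906 to 1009 CPM in TIR1 and 1138 to 1303 CPM in WT libraries, and titled WT replicate 4 of the infants fell among the TIR1 libraries for Tnfrsf9.

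**Figure D4:**
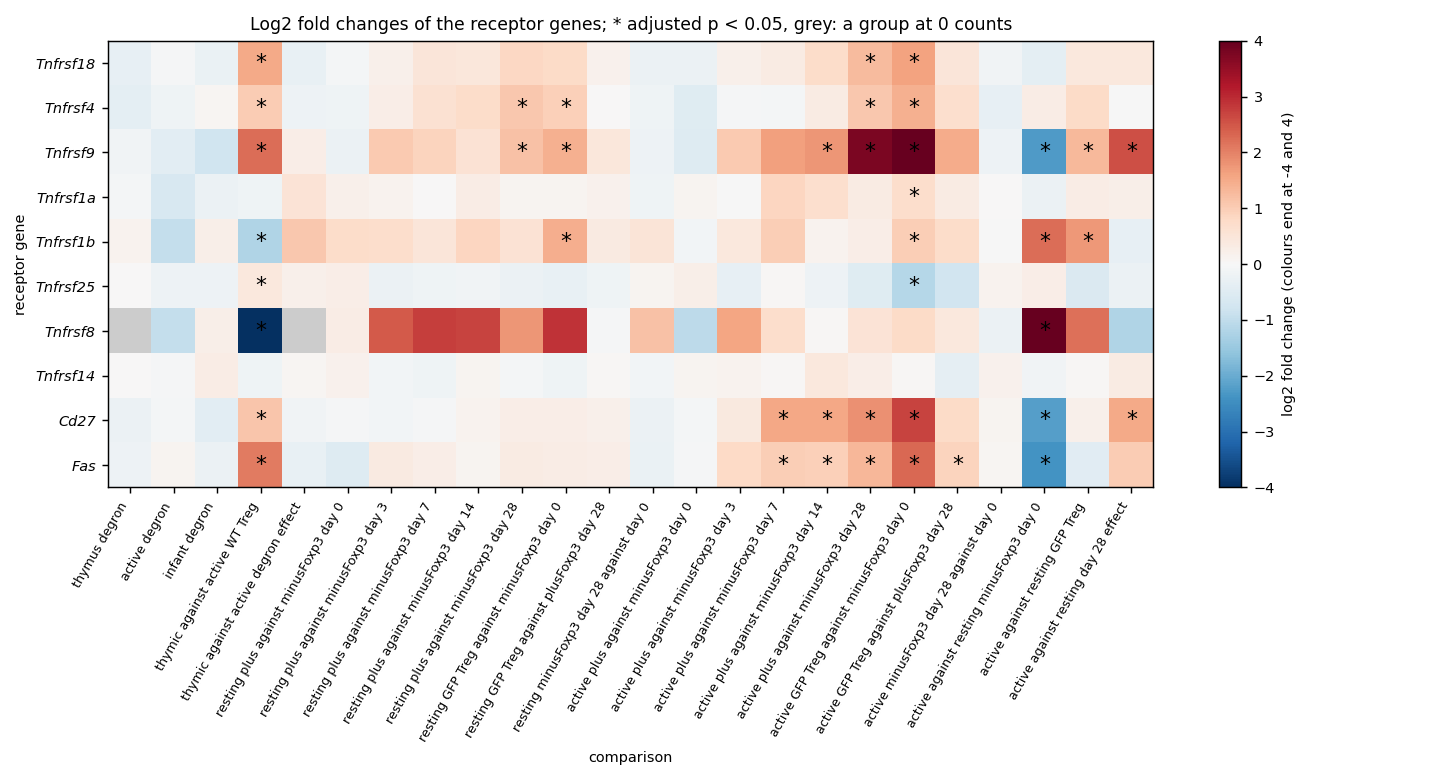
Heat map of log2 fold changes from edgeR for the 10 receptors (rows) in the 24 comparisons (columns), with a star for an adjusted p under 0.05 and grey for Tnfrsf8 where a group had 0 counts. The largest value shown was 5.04, for Tnfrsf9 in active GFP Treg against minusFoxp3 cells of day 0, and Tnfrsf9 reached 3.76 at day 28 in active cells.

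The receptors' ligands, other receptors of the family and their signalling proteins were read from lists of 16, 18 and 14 genes, with at most the 4 largest changes of a list named. In active cells at day 28, of 13 ligands tested 0 were higher and 2 lower in plusFoxp3 cells, Tnfsf13b (BAFF, -1.52, adjusted p = 0.00403) and Tnfsf8, the ligand of CD30 (151 against 381 CPM, -1.32, adjusted p = 0.00908). In resting cells at day 28, 0 were higher and 2 lower, Tnfsf8 (87.9 against 208 CPM, -1.22, adjusted p = 0.0189) and Cd40lg, which activates CD40 on antigen-presenting cells (-1.12, adjusted p = 0.036). Of the 12 other receptors and 14 signalling genes, 0 were called at day 28 in either state. At day 7 in active cells Tnfsf13b was lower (-1.24, adjusted p = 0.0377) and Traf5, a TRAF adaptor, higher (1.13, adjusted p = 0.0194).

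Active GFP Treg against minusFoxp3 cells of day 0 had 2 ligands higher and 4 lower of 13, the lower ones being Tnfsf8 (-2.95, adjusted p = 1.46e-06), Tnfsf14 (LIGHT, -1.63, 0.0307), Cd40lg (-1.55, 0.000416) and Tnfsf13b (-1.42, 0.00159). Of 12 other receptors, Relt was higher (1.35, adjusted p = 0.00134) and Tnfrsf13b lower (-1.28, 0.000834). Of 14 signalling genes 2 were higher, Birc2 (1.04) and Traf5 (1.01), and 0 lower. In resting GFP Treg cells the ligands called were again 0 higher and 2 lower, Cd40lg (-1.98, adjusted p = 0.000194) and Tnfsf8 (-1.92, 0.000204). In active GFP Treg against plusFoxp3 cells of day 28, Tnfsf8 (-1.67) and Cd40lg (-1.28) were lower, and none of the other listed ligands, receptors or signalling genes was called.

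Between states, 4 of 13 ligands were higher and 1 lower in active than in resting minusFoxp3 cells, among them Tnfsf13b (2.42), Tnfsf14 (2.39) and Tnfsf9, the ligand of 4-1BB (1.44), with Lta lower (-1.39). In GFP Treg cells 2 ligands were higher in the active state, Tnfsf14 (2.69) and Tnfsf11 (RANKL, 1.77), and 0 lower. Thymic WT cells had 2 of 12 ligands higher and 6 lower than active WT cells, including Lta higher (1.62) and Tnf (-1.90) and Tnfsf14 (-6.33) lower. Of 11 other receptors 1 was higher there and 3 lower, and of 14 signalling genes 3 were higher and 3 lower, with Traf5 at -1.30. In the 3 degron comparisons, 0 ligands, 0 other receptors and 0 signalling genes were called by edgeR.

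Across the 22 groups of the reversible series and GFP Treg cells, some receptors rose and fell together. These correlations use the libraries of the comparisons above and are no separate evidence. On log2(CPM + 1) group means, which share the active and resting states and the Foxp3 conditions, Pearson's r was 0.959 for Cd27 with Fas, 0.930 for Tnfrsf18 with Tnfrsf9, 0.933 for Tnfrsf1b with Tnfrsf8 and 0.822 for Tnfrsf18 with Tnfrsf4. Tnfrsf25 ran against Tnfrsf18 (-0.857) and Tnfrsf9 (-0.841). Among 12399 genes with a mean count of at least 100, those most like Tnfrsf18 were Izumo1r (0.9792), Pglyrp1 (0.9763), Tmem243 (0.9501), Epcam (0.9496) and Sting1 (0.9418). The genes closest to Tnfrsf9 were Ikzf2 (0.9810), Ephx1 (0.9720), Cd2 (0.9692), Itgb8 (0.9674) and Rhoh (0.9654). For Tnfrsf4 they were Cd83 (0.9243), Sh2d1a (0.9094), Larp1b (0.9053), Pdcd1lg2 (0.9042) and Gm39556 (0.9018).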

How the data were processed

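RNA of sorted CD4+ T cells was amplified and sequenced as bulk libraries, and the authors deposited 1 table per library with whole-number counts of read pairs per gene. The submitters' processing notes name Bowtie2, featureCounts, DESeq2 and mm39, whereas the study's methods name STAR as aligner. The file headers show that a mapping-quality filter was set for the degron libraries alone, and strand was not used. All 64 libraries entered, in the groups of their labels. Adult degron tables were assigned by the library name in their headers.

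Counts were tested in R 4.3.3 with edgeR 4.0.16, by a two-sided quasi-likelihood test with TMM scaling. Benjamini-Hochberg adjustment was over all genes with a mean count of at least 10, with a threshold of 0.05. The thymic and the active degron comparison were each fitted on their own libraries, and thymic against active cells on all adult degron libraries. Infant, resting and active libraries were each fitted together. The 2 comparisons of states and that of the day 28 difference were fitted over resting and active libraries. Fold changes are log2 with standard errors. CPM were computed from the library totals without TMM scaling. Counting error is small for most receptors at this depth, and Tnfrsf8 and Tnfrsf14 are the least precise. The code was tested on simulated data. Alternatives were DESeq2 1.42.0, other size factors, no count filter, a replicate block, fits on the compared libraries alone, the recorded attachment of tables, and leaving out each library.

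Promoters were the 250 bases before the canonical start of 21770 protein-coding genes in the GENCODE annotation of GRCm39, the genome that mm39 names. The 10 receptors, the gene lists and the tests were chosen with earlier results of these data known, and the motifs after results had been seen. A gene among the marker lists is not reported here. All 10 receptors were named whatever their values, at most 4 called genes per list and comparison by absolute fold change, and the 5 genes most correlated with each of Tnfrsf18, Tnfrsf4 and Tnfrsf9.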

Additional observations from a re-analysis of the deposited data

Results flagged for a closer look

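Of 20 groups of 4 infant values examined, 5 had 1 library far from the other 3 by Dixon's criterion, which chance meets in about 1 of 20 groups. Among libraries titled WT, replicate 4 held 201 CPM of Tnfrsf18, 84.6 CPM of Tnfrsf9, 265 CPM of Cd27 and 15.9 CPM of Tnfrsf14, away from the other 3 libraries in each. Among libraries titled TIR1, replicate 4 held 222 CPM of Cd27, below the other 3.

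The day 28 difference between plusFoxp3 and minusFoxp3 cells was larger in active than in resting cells by 2.59 on the log2 scale for Tnfrsf9 and by 1.53 for Cd27, by the test of the difference itself (edgeR, adjusted p = 0.0141 for each). In a fit on the compared libraries alone neither passed (0.214 for Tnfrsf9, 0.364 for Cd27). Leaving out most of the single libraries also ended both calls, as given above.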

How the results depend on the processing

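With RLE size factors the number of receptors called was unchanged in 23 of 24 comparisons and fell to 7 in active GFP Treg against minusFoxp3 cells of day 0, where Tnfrsf1b was lost (adjusted p = 0.0591). DESeq2 called 3 receptors in the thymic degron comparison, 2 in infants, 1 in the thymic against active degron effect, 1 each at resting days 3 and 7, 2, 4 and 5 at active days 3, 7 and 14, 4 in active GFP Treg against plusFoxp3 day 28 and 4 in active against resting GFP Treg. Without the count filter, resting cells had 2, 2, 3 and 4 called receptors at days 3, 7, 14 and 28 and 5 in GFP Treg against day 0, active cells had 1, 2 and 5 at days 0, 3 and 7, and active GFP Treg had 6 against plusFoxp3 day 28 and 4 against resting GFP Treg. With fits on the compared libraries alone the counts were 2 and 0 at resting days 3 and 28, 0 and 3 at active days 7 and 28, 0 in active GFP Treg against plusFoxp3 day 28, 4 in active against resting GFP Treg and 0 in the day 28 effect. These fits lost Tnfrsf9 (adjusted p = 0.0567) and Tnfrsf4 (0.0808) at resting day 28 and Cd27 (0.143) and Fas (0.486) at active day 7. At active day 14 Fas was lost (0.0634) and Tnfrsf18 gained (0.0496), and at day 28 Tnfrsf4 (0.0527) and Fas (0.0767) were lost. Also lost were Tnfrsf1a (0.0926) and Tnfrsf1b (0.0671) in active GFP Treg against minusFoxp3 day 0, and Tnfrsf25 (0.0803) and Tnfrsf8 (0.0611) in thymic against active WT. The cause was not tested. Calls over all genes rose with the setting too: DESeq2 called 1.1% in the thymic degron comparison and 6.83% in infants, against 0% and 0.0185% by edgeR. For the other settings named here the share of all genes is not given. These counts therefore show dependence on the setting and are no result about the receptors. With the recorded attachment of tables the thymic degron values became 0.33 for Tnfrsf18, 0.39 for Tnfrsf4, 0.15 for Tnfrsf9 and 0.23 for Cd27, and the active ones 0.04, 0.18, 0.94 and 0.63 for Tnfrsf18, Tnfrsf4, Tnfrsf1b and Tnfrsf1a, because the groups are exchanged. TMM-scaled totals moved Tnfrsf1a in active GFP Treg cells to 54.3 CPM, and no scaling moved the median of all genes by more than 0.0323.

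Replicate numbers showed at most weak pairing of the libraries. With 3 or more pairs, deviations of same-numbered libraries correlated at -0.0862 to 0.0388, and with 2 pairs at -0.122 to 0.222. Active against resting cells were among the highest, at 0.222 in minusFoxp3 cells of day 0 and 0.186 in GFP Treg cells. The labels do not say whether same-numbered libraries share a mouse, so pairing was not settled. With the replicate block 1 receptor was called in resting cells at day 3, 1 at day 14, and 4 in active against resting GFP Treg cells, and the count changed in no other comparison by more than 1.5 times. A crossed block for active GFP Treg against minusFoxp3 day 0, chosen after seeing the data, left the count within 1.5 times.

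Leaving out 1 library at a time gave 0 to 4 called receptors in infants, 6 to 7 in thymic against active WT, 0 to 1 at resting day 0, 0 to 2 at resting day 28, 1 to 2 in resting GFP Treg against day 0, 0 to 5, 1 to 1 and 3 to 5 at active days 7, 14 and 28, 6 to 6 and 0 to 3 in active GFP Treg against minusFoxp3 day 0 and plusFoxp3 day 28, 5 to 5 and 0 to 2 between states in minusFoxp3 and GFP Treg cells, 0 to 2 in the day 28 effect, and 0 to 0 in the remaining comparisons. Tnfrsf18 in the active degron comparison ranged from -0.15 to 0.03. With 2 libraries per group, a library left alone is assumed to vary like the other groups. Depth limits Tnfrsf8 most, which had 0 counts in 4 libraries.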
